A study of Mus musculus with 12 samples.

Results

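The wild type microglia isolated after transient middle cerebral artery occlusion (tMCAO) were 2 of the 12 samples of the series, both chosen by their labels alone. In tMCAO the artery that feeds much of a brain hemisphere is blocked for a limited time and then reopened, which gives an experimental stroke. The series holds 6 groups of 2 samples: microglia of mice of 3 genotypes (wild type, ZEB1-overexpression or ZEB1-knock down), each before and after tMCAO, all from male mice aged 8 weeks. In all groups the cells came from the brain and were enriched on magnetic columns for CX3CR1, the fractalkine receptor that microglia carry. ZEB1 is a zinc finger repressor of transcription. The comparisons drawn here are with ZEB1 overexpression after tMCAO (2 samples), which was measured on the same slide, and with wild type before tMCAO (2 samples, labelled control), which was measured on another. The labels used here do not say which promoter drives the overexpression, how long after occlusion the cells were taken, from which hemisphere, or from how many mice. The p-values therefore measure the spread between samples that may be technical replicates.

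Microglia are the resident macrophages of the brain. They survey the tissue with receptors for nucleotides, chemokines and lipids, and after an injury they clear debris through Fc receptors, complement and lysosomal proteases while releasing cytokines and chemokines that draw in blood cells. Genes such as Tmem119 and P2ry12 mark the resting state, whereas genes such as Apoe, Spp1 and Lgals3 mark the activated, phagocytic state. An injured brain also takes up neutrophils and monocytes, and some of these blood cells can carry CX3CR1 as well.

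Promoter sequences of 5 genes are shown because their levels recur below: a pair of interferon response genes that were lower in wild type than in the samples labelled ZEB1 overexpression, and 3 genes, of phagocytes and neutrophils, that were among the brightest. Each is the RefSeq window of 250 bases before the annotated start, 5′ to 3′ along the gene, in build GRCm38.p6. In the windows of Isg15 (chr4:156200819-156201068, minus strand) and Rsad2 (chr12:26456453-26456702, minus strand) the capitals mark the interferon-stimulated response element, searched as GAAA, any 2 bases and GAAA on either strand. In those of Itgam (chr7:128062390-128062639, plus strand), Trem2 (chr17:48346151-48346400, plus strand) and Lcn2 (chr2:32387740-32387989, minus strand) the capitals mark the core site of the myeloid factor PU.1, searched as GAGGAAG on either strand. In Isg15, 3 overlapping matches make up 1 stretch.
Isg15: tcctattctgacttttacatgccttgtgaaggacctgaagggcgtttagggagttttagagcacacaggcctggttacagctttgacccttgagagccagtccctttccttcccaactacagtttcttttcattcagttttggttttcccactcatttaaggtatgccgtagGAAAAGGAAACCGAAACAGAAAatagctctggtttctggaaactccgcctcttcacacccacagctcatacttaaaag
Rsad2: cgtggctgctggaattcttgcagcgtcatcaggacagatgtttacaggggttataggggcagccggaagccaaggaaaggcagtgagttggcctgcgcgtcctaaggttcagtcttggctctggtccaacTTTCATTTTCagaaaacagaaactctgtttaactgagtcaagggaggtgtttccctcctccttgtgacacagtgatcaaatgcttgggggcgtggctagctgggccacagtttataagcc
Itgam: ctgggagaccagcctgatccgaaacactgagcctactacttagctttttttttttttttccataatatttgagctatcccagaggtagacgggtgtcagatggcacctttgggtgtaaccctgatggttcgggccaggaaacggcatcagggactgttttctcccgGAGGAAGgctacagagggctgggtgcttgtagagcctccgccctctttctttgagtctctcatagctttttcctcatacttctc
Trem2: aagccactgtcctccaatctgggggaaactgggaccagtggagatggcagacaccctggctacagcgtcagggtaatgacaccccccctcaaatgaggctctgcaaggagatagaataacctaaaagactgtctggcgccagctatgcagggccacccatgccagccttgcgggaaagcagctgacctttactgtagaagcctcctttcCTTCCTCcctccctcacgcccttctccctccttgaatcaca
Lcn2: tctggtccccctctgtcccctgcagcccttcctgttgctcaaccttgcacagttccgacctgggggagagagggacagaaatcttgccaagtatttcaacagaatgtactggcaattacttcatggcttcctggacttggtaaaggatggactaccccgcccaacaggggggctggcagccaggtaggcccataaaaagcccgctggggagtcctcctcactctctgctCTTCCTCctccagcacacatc
The interferon element was present in 9 of the 18 interferon response genes that had a window (50%), against 3.46% of the 27025 genes with a window. The PU.1 letters were present in 6 of 13 phagocyte core genes (46.2%), 6 of 12 neutrophil markers (50%) and 3 of 12 homeostatic microglia genes (25%), against 12% of all. A match describes these letters in this window and shows no binding.

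Each array carried 55681 probes, of which 26762 could be tied to 20284 named genes. The level of a gene is the log2 intensity of its brightest probe minus the log2 75th percentile of all spots of that array, so a level of 0 is the 75th percentile and each step of 1 is a factor of 2. A gene counted as measured when that probe was well above background on both arrays, as 16188 genes were (79.8%). Genes described below as not well above background missed this on 1 array or on both. A percentile gives the gene's place among those 16188, where the median level was 0.02, percentile 75 was at 1.74 and percentile 90 at 2.86. Levels of different genes come from different probes, so percentiles describe probe brightness and not the number of transcripts. No spot was saturated. The replicates were alike across genes, which are not independent of each other, with Pearson r = 0.988 and Spearman rho = 0.989. The median absolute difference was 0.24, and 83% of genes lay within 0.5 of each other.

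**Figure D1:**
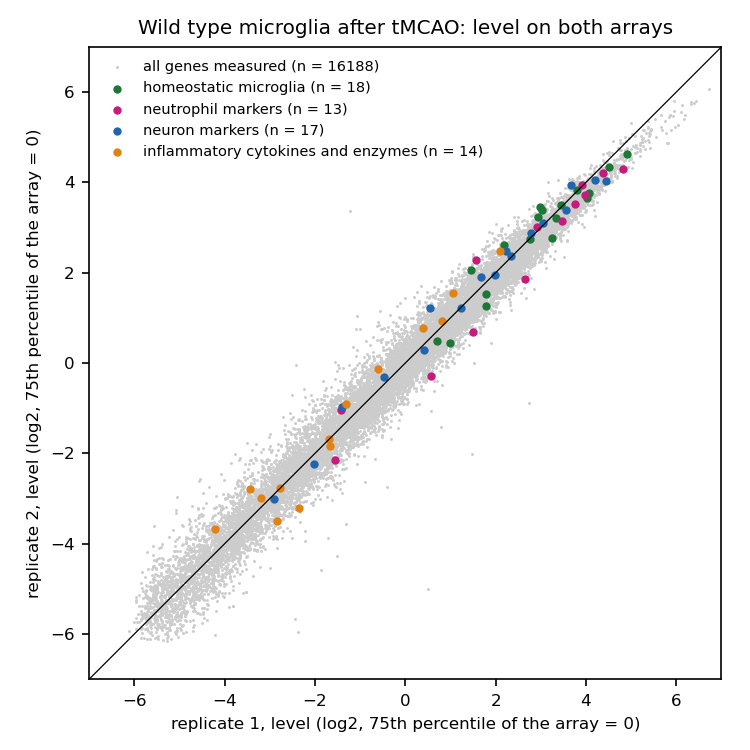
Level of each of the 16188 genes measured (grey) on replicate 1 (x axis) and replicate 2 (y axis), both in log2 with the 75th percentile of the array at 0; the line marks equal levels. Homeostatic microglia and neutrophil genes lie mostly in the bright end, near the line, and inflammatory cytokines mostly in the dim end.

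The scanner software had marked 21.7% and 16.9% of the spots of replicates 1 and 2 as non-uniform or outlying, and 74.7% and 54.1% of those in the brightest 10% of spots. Marked spots were kept in the levels given here. Leaving them out left 10246 genes, among them 4 of the 17 phagocyte core genes, 3 of the 13 neutrophil markers and none of the 18 homeostatic genes. Among genes marked on both arrays the median absolute difference between the arrays was 0.22, and among genes marked on neither it was 0.25.

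The 25 named genes with the highest mean level were Sp110, Pak4, Zcchc9, Cep170b, Madd, Septin3, Arl6ip6, Ms4a4c, Sgsh, Itsn1, Hemgn, Eya1, Slc10a1, Ubtf, Luc7l2, Skint7, Plekhg3, Spag7, Apoe, Timmdc1, Exosc2, Ung, Creb5, Sema4c and Ldlrad3, in this order. Apoe, the lipid carrier that activated microglia and astrocytes secrete, was the only one of them in any list of microglial state genes, at 5.74 and 5.37. Ms4a4c, a membrane gene of monocytes, was at 6.20 and 5.49. Of the 25, 14 had a further probe, and for 12 of these the next probe was more than 4 lower on the log2 scale, which is over 16-fold dimmer. Sp110, a nuclear body protein, read 6.74 and 6.07 on its brightest probe and 2.47 and 2.54 on the next. Slc10a1, the bile acid importer of liver cells, read 5.86 and 5.50 on 1 probe and -3.99 and -3.85 on its other. Where the probes of a gene disagree this far, the bright value cannot be assigned to the gene as a whole. The array design used before tMCAO held 22 of the 25 bright probes, and all 22 read 4.24 to 5.32 there. Over all 5405 genes with several probes, the median gap between brightest and dimmest was 2.37, and 1599 (29.6%) had a gap over 4.

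**Figure D2:**
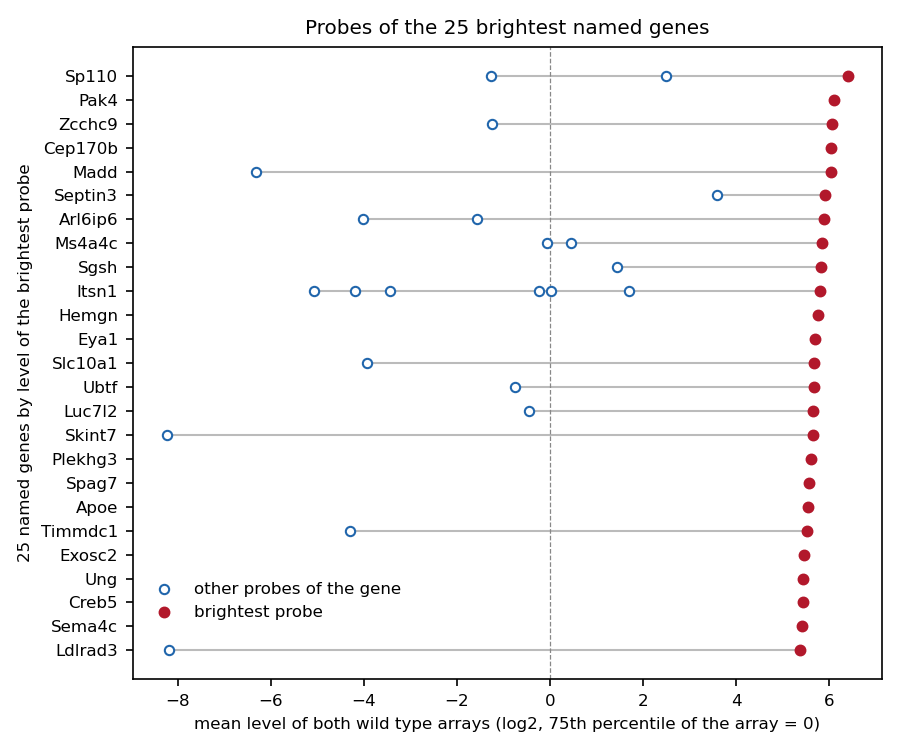
Mean level of both wild type arrays (x axis, log2, 75th percentile of the array at 0) for each probe of the 25 brightest named genes (rows); filled points are the brightest probe and open points the others. For 12 of the 14 genes with a further probe, the next point lies more than 4 to the left.

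A bright level rested on agreeing probes in 35 genes, which had at least 2 probes at or above percentile 97 (3.74). Ribosomal proteins made up 10 of the 35, such as Rpl10 (4.53 and 4.37 as means of its brightest and next probe). The others included Gapdh (4.29 and 4.19), Ftl1, the ferritin light chain (4.57 and 4.08), Mif, a cytokine stored in many cells (4.71 and 4.42), and Cplx2, a complexin of nerve terminals (5.31 and 4.75). Of the cytosolic ribosomal protein list all 20 genes were measured and 17 lay above percentile 90, with a median percentile of 97.4, the highest of the 37 lists. Rplp0 was the brightest at 4.83 and 4.87, although another of its probes read 2.70 and 2.80. Next came Rpsa at 4.68 and 4.40, Rpl10 at 4.63 and 4.44 and Rps29 at 4.49 and 4.32.

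**Figure D3:**
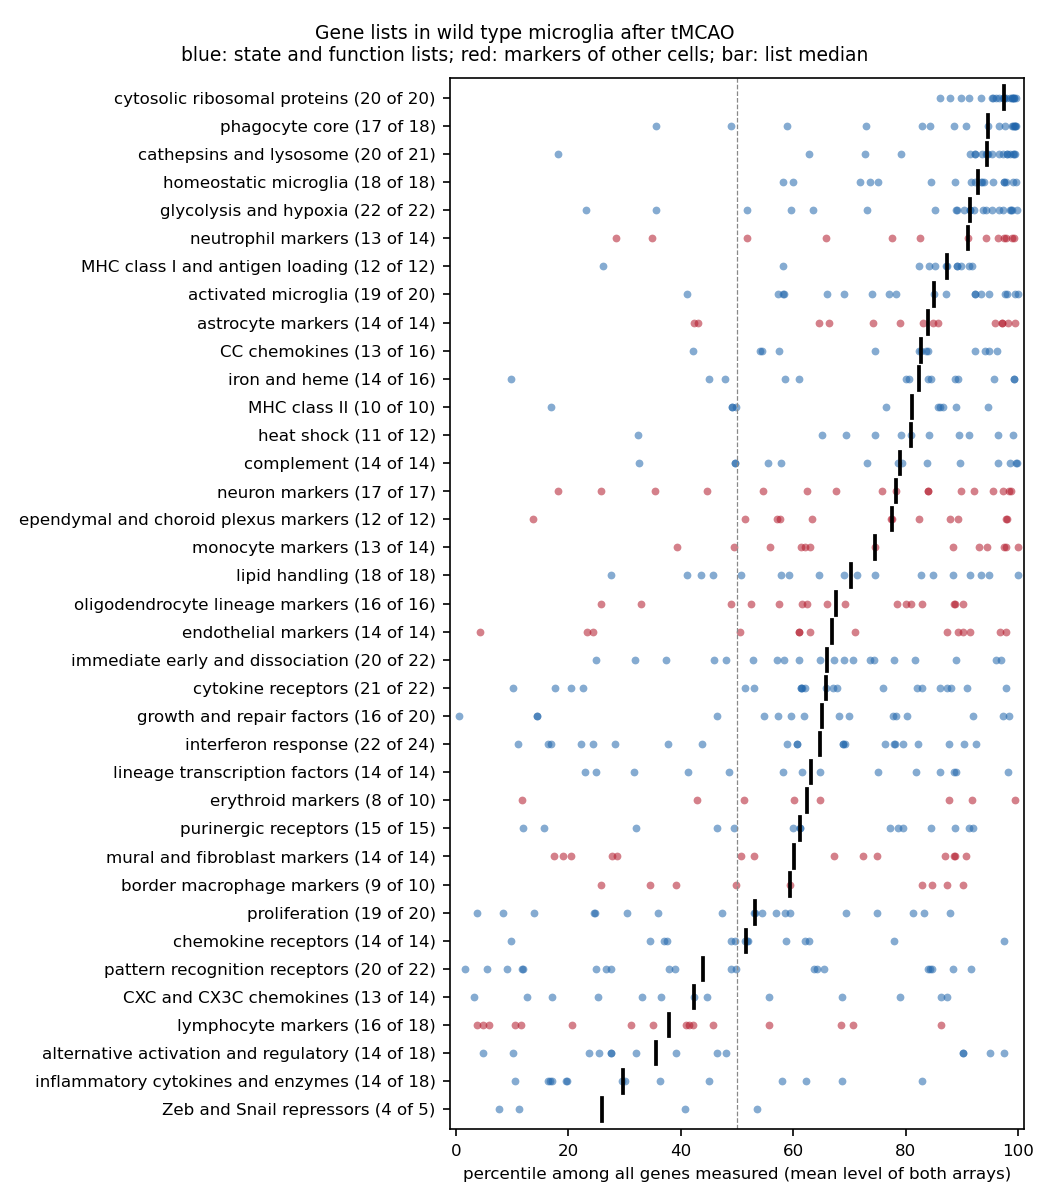
Percentile of each measured member (points, x axis) in the 37 gene lists (rows, with members measured of members listed), from the mean level of both arrays; bars mark list medians, and the dashed line the median of all genes. Phagocyte, lysosome and homeostatic microglia lists lie with the ribosomal proteins at the bright end, and inflammatory cytokines near the dim end.

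The phagocyte core, genes that all tissue macrophages share, was bright: 17 of 18 genes were measured, 10 lay above percentile 90, and the median percentile was 94.5. Csf1r, the receptor for the survival factor CSF1, stood at 4.92 and 4.62, and Tyrobp, the adaptor of TREM2, at 4.74 and 4.74. Cyba, a subunit of the phagocyte oxidase, read 4.82 and 4.37, and Fcer1g, the Fc receptor gamma chain, 4.64 and 4.32. The oxidase's other membrane subunit, Cybb, was the dimmest of the list at -1.54 and -0.79 (percentile 35.6). Ptprc, which encodes CD45, read 0.12 and -0.26, just below the median of all genes. Itgam, whose promoter is shown above, read 4.56 and 4.10 on the probe used for the comparison with before tMCAO. Cd68 had no named probe.

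All 18 homeostatic microglia genes were measured and all lay above the median of all genes, 11 of them above percentile 90, with a median percentile of 92.9. Being measured says little by itself, since 79.8% of all named genes were. Markers of neurons, astrocytes, oligodendrocytes and endothelium were measured as well, and the neutrophil markers had a median percentile of 91.1. These levels therefore do not show that the cells were microglia alone. After Csf1r, the brightest were Sparc, a matrix protein, at 4.50 and 4.34, Olfml3 at 4.06 and 3.77, and Selplg, the P-selectin ligand, at 4.03 and 3.65. Cx3cr1, by whose product the cells were enriched, read 3.80 and 3.84 (percentile 97.4). Tmem119, the membrane protein that sets microglia apart from blood macrophages, read 3.45 and 3.49 (percentile 95.4). Bin1 stood at 3.34 and 3.21, the fructose carrier Slc2a5 at 3.03 and 3.40, Fcrls at 2.94 and 3.23 and Crybb1 at 3.24 and 2.76. The purine receptor P2ry13 read 2.76 and 2.75, and P2ry12, through which processes home to released ATP, 2.18 and 2.62. The lower end of the list held Gpr34 at 1.44 and 2.05, Siglech at 1.78 and 1.53 and Mertk, which takes up dying cells, at 1.79 and 1.26. Entpd1, which breaks down ATP, read 0.98 and 0.43, and Sall1, the transcription factor of microglial identity, 0.71 and 0.48. The arrays differed by at most 0.61 over the list. Every one of the 18 carried a marked spot on at least 1 array.

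The lineage transcription factors lay lower, with all 14 measured and a median percentile of 63.1. The brightest was Mef2a at 4.12 and 3.98, although a further probe of it averaged -3.0. Cebpb, a driver of inflammatory transcription, read 2.75 and 2.77, and Irf8, which microglia need to develop, 2.76 and 2.71. Spi1, which encodes PU.1, was read by its probe at -2.18 and -2.25 (percentile 25).

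Genes of activated microglia were measured in 19 of 20 cases, 18 above the median of all genes, with a median percentile of 85.0. Below Apoe came Tyrobp, then the protease Ctsb at 4.07 and 3.90 and the lipid receptor Trem2 at 3.77 and 3.95. Lgals3, which encodes galectin 3, read 3.16 and 3.59, and Spp1, which encodes osteopontin, 2.51 and 2.72. The integrin Itgax (0.49 and 0.72) and the growth factor Igf1 (0.58 and 0.51) lay closer to the median, and Ch25h, a cholesterol hydroxylase, was the one member below it. Clec7a had no named probe. All 18 lipid handling genes were measured, with a median percentile of 70.2. Apoe led them, followed by the uptake receptor Lrp1 at 3.66 and 3.10, the fatty acid carrier Fabp5 at 3.14 and 3.27 and the sterol carrier Npc2 at 3.20 and 2.80.

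Cathepsins and lysosomal genes were as bright as the phagocyte core: 20 of 21 were measured, 16 lay above percentile 90 and the median percentile was 94.5. Cst3, a secreted inhibitor of cathepsins, read 4.75 and 4.72. The proteases Ctsz, Ctsd and Ctsa read 4.64 and 4.28, 4.53 and 4.35 and 4.08 and 4.18. Ctsk, the collagen-degrading cathepsin of osteoclasts, differed between the arrays, at 0.25 and 1.57. Ctse was the only member below the median, at -2.92 and -2.98.

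Of the complement genes all 14 were measured and 11 lay above the median, with a median percentile of 79.0. The 3 chains of C1q, which opens the classical pathway and tags synapses for removal, were the brightest: C1qa read 5.38 and 4.94, C1qb 5.01 and 4.73 and C1qc 4.17 and 4.10. C4b read 3.65 and 3.57. C3 stood at 2.42 and 2.28, with a second probe averaging 1.55, and the receptor C3ar1 at 2.28 and 1.79.

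MHC class I and antigen loading genes were all measured (12), 11 above the median, with a median percentile of 87.2. The immunoproteasome subunit Psmb10 led at 2.78 and 3.25, followed by H2-T23 at 2.89 and 3.06, H2-K1 at 2.82 and 2.86 and Psmb8 at 2.71 and 2.86. The peptide transporter subunit Tap1 was the exception, at -2.16 and -2.04 (percentile 26.2). All 10 MHC class II genes were measured and 6 lay above the median, with a median percentile of 81.1. H2-Ab1 read 3.14 and 3.59, the loading factors H2-DMb1 and H2-DMa 2.94 and 2.58 and 2.65 and 2.50, and Cd74, the invariant chain, 2.13 and 2.93. The costimulatory genes Cd80 (0.03 and -0.15) and Cd86 (-0.12 and -0.00) lay just below the median.

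Inflammatory cytokines and enzymes were mostly dim: 14 of 18 were measured, 4 lay above the median of all genes, and the median percentile was 29.7. Il1b, the product of inflammasome-activated phagocytes, was the brightest at 2.10 and 2.48 (percentile 82.9). Ltb read 1.06 and 1.55, Il18 0.81 and 0.93 and Acod1, the enzyme that makes itaconate, 0.39 and 0.77. These 4 stood above the rest. Below the median, Il33 read -0.61 and -0.13, Tnfsf9 -1.32 and -0.90, Tnf -1.68 and -1.69 and Nos2, the inducible nitric oxide synthase, -1.67 and -1.84. Ptgs2, the inducible prostaglandin synthase, read -2.77 and -2.76, and Il6 -2.36 and -3.22. Lta stood at -3.19 and -2.99, Ifng at -3.45 and -2.80, Il1a at -2.85 and -3.50 and Il27 at -4.22 and -3.67. Il12a, Il23a and Il17a were not well above background on both arrays, and Il12b had no named probe.

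CC chemokines, which mainly attract monocytes and T cells, were brighter than the cytokines, with 13 of 16 measured, 12 above the median and a median percentile of 82.7. Ccl2, the ligand that draws CCR2+ monocytes, was the brightest at 3.71 and 3.50 (percentile 96.3). Ccl5 read 3.39 and 3.37, Ccl27a 3.46 and 3.13 and Ccl6 3.10 and 3.05. All 4 lay above percentile 90. Ccl25 stood at 2.50 and 2.22, Ccl9 at 2.21 and 2.46, Ccl12 at 2.31 and 2.23 and Ccl3 and Ccl4 at 2.09 and 2.41 and 1.65 and 1.77. Near the median were Ccl24 (0.52 and 0.59), Ccl7 (0.53 and 0.14) and Ccl8 (0.20 and 0.43), with Ccl17 below it (-0.59 and -0.59). Ccl11, Ccl22 and Ccl28 were not well above background.

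CXC and CX3C chemokines lay lower, with 13 of 14 measured, 5 above the median and a median percentile of 42.4. The brightest were Pf4, platelet factor 4, at 2.56 and 2.70 and Cx3cl1, the neuronal ligand of CX3CR1, at 2.58 and 2.52. Cxcl12 read 1.70 and 2.31, Cxcl16 1.12 and 1.48 and Cxcl14 0.32 and 0.54. The interferon-induced Cxcl10 differed between the arrays more than any other of these chemokines, at -1.08 and 0.28. The ligands of the neutrophil receptor CXCR2 were dim: Cxcl2 read -0.70 and -0.45, Cxcl3 -0.85 and -1.34, Ppbp -1.49 and -1.27, Cxcl1 -2.84 and -3.32 and Cxcl5 -4.06 and -3.24. Cxcl9 stood at -2.27 and -2.10, and Cxcl13, a B cell attractant, was the dimmest at -4.99 and -5.13. Cxcl11 had no named probe.

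**Figure D4:**
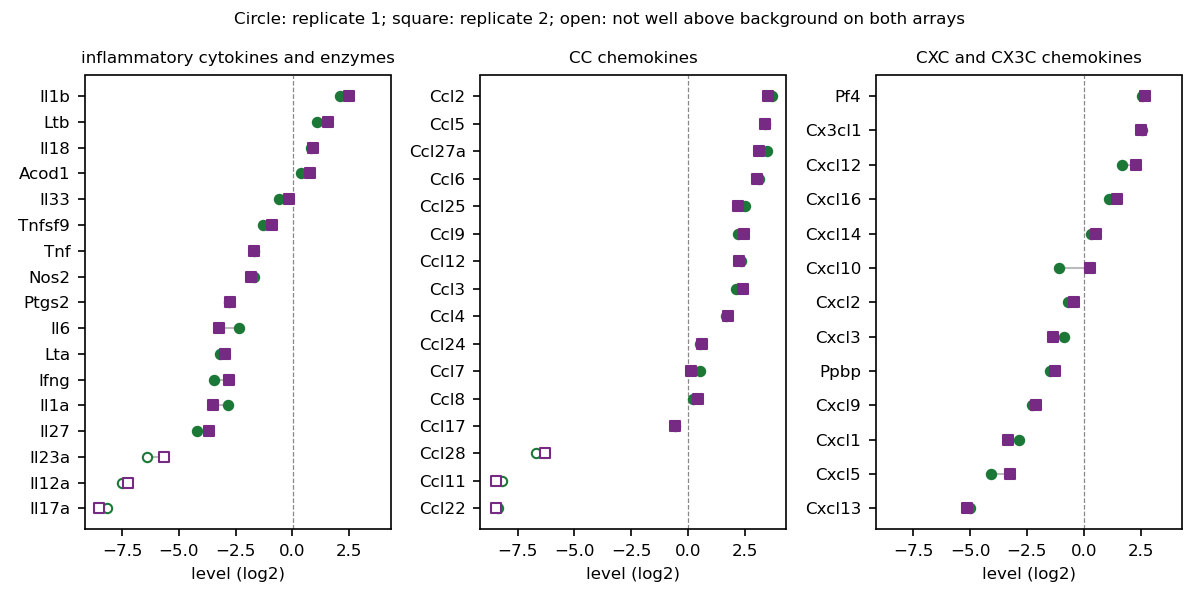
Level (x axis, log2, 75th percentile of the array at 0) of each inflammatory cytokine or enzyme, CC chemokine and CXC or CX3C chemokine with a named probe on replicate 1 (circles) and replicate 2 (squares); open symbols were not well above background on both arrays, and the dashed line is the median of all genes. Of the CC chemokines measured 12 of 13 lie right of the line, against 4 of 14 inflammatory cytokines and enzymes.

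On the receiving side, all 14 chemokine receptors were measured with a median percentile of 51.5. After Cx3cr1 came the decoy receptor Ackr1 at 2.25 and 1.62, Cxcr4 at 0.87 and 0.94 and Ccr2, the CCL2 receptor of monocytes, at 0.67 and 1.04. Of the cytokine receptors 21 of 22 were measured, 17 above the median, with a median percentile of 65.7. Csf3r, the granulocyte colony-stimulating factor receptor, read 3.92 and 3.93, Il6ra 3.12 and 2.75, Tgfbr1 2.51 and 2.87 and Il10ra 2.69 and 2.57. Il1r1, which signals for IL-1, stood at -2.19 and -2.70, below its decoy Il1r2 at 1.35 and 0.85. Il1rap was not well above background on both arrays.

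Genes of alternative activation divided into a bright few and a dim rest, with 14 of 18 measured, 4 above the median, all of them above percentile 90, and a median percentile of 35.6. The bright ones were the chitinase-like Chil3 at 4.04 and 3.59, the signalling inhibitor Socs3 at 3.54 and 3.27, the scavenger receptor Stab1 at 3.16 and 2.60 and arginase 1, Arg1, at 2.96 and 2.79. The mannose receptor Mrc1 read -0.49 and -1.22. Il10, Il13, Cd163 and Ccl22 were not well above background on both arrays. Growth and repair factors were measured in 16 of 20 cases, with a median percentile of 65.0. The MERTK ligand Gas6 led at 4.34 and 3.89, followed by progranulin, Grn, at 3.74 and 3.84, Pdgfa at 3.22 and 2.89 and Pdgfb at 2.16 and 2.05. The neurotrophin Bdnf (-3.59 and -3.27) was dim, and Gdnf, Areg, Lif and Fgf2 were not well above background.

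Interferon response genes covered the whole range, with 22 of 24 measured, 14 above the median and a median percentile of 64.8. Bst2, which tethers budding viruses, read 3.43 and 2.78, Ifitm3, which blocks viral entry, 2.90 and 2.90, Stat2 2.93 and 2.38 and the DNA sensor Ifi204 2.62 and 1.84. Isg15, the ubiquitin-like modifier whose promoter is shown above, read 1.99 and 2.10, and Rsad2, which encodes viperin, 1.94 and 1.95. At the dim end was Ifi44 (-3.21 and -3.11). Mx1 and Mx2 had no named probe.

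Pattern recognition receptors were measured in 20 of 22 cases, 8 above the median, with a median percentile of 44.0. The endosomal receptors Tlr13 and Tlr7 read 3.30 and 2.73 and 2.63 and 2.21, and the lectin Clec4d 2.67 and 2.78. Cd14, the coreceptor for endotoxin, read 2.72 and 2.05, while its partner Tlr4 was dim at -2.20 and -2.24. Tlr8 was not well above background. All 15 purinergic receptors and ectonucleotidases were measured, with a median percentile of 61.2. The adenosine receptor Adora3 read 3.31 and 2.78 and the ATP-gated channel P2rx4 3.24 and 2.70. These stood above P2ry13 and P2ry12, given with the homeostatic genes.

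Of the immediate early genes, which cell isolation can also induce, 20 of 22 were measured and 15 lay above the median, with a median percentile of 66.0. Jun read 3.93 and 3.49, the NF-kB inhibitor Nfkbia 3.61 and 3.50, Jund 2.67 and 2.85 and Fosb 2.35 and 2.03. Fosl1 and Egr3 were not well above background. Heat shock genes were measured in 11 of 12 cases with a median percentile of 80.9. Hsp90ab1 read 4.40 and 4.32, Hspa8 3.81 and 3.43, Dnajb1 2.97 and 2.99 and Hspe1 2.87 and 2.75, whereas the stress-induced Hspa1a was dim at -1.06 and -1.83. Hspa1b had no named probe.

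Genes of glycolysis and hypoxia were bright, with all 22 measured, 20 above the median and a median percentile of 91.4. The glycolytic enzymes Aldoa, Gapdh, Gpi1 and Ldha read 5.40 and 4.90, 4.36 and 4.22, 4.44 and 4.10 and 4.17 and 4.20. Hif1a, the oxygen-sensitive transcription factor, and its target Adm were the exceptions, at -1.19 and -1.14 and -2.24 and -2.54. Of the iron and heme genes 14 of 16 were measured, with a median percentile of 82.3. The ferritin light chain Ftl1 read 4.76 and 4.38, Lcn2, which binds bacterial iron carriers, 4.83 and 4.29, the heme oxygenase Hmox2 3.59 and 3.45 and the ferritin heavy chain Fth1 3.02 and 2.56. Hmox1, the inducible heme oxygenase, read 2.22 and 2.50, and Hamp was not well above background.

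Proliferation genes lay around the median of all genes, with 19 of 20 measured and a median percentile of 53.3. Birc5 read 2.85 and 2.49, although its other probes averaged 0.73 and 0.14, the replication clamp Pcna 2.29 and 2.33, Mcm6 2.19 and 2.16 and Mki67 1.72 and 1.75. The mitotic genes Top2a (-2.07 and -2.43) and Cdk1 (-3.42 and -3.55) were dim, and Cenpf was not well above background. Zeb1 itself read 0.12 and 0.41 (percentile 53.5), its relative Zeb2 -0.89 and -0.55, Twist1 -3.68 and -3.99 and Snai2 -4.60 and -4.05. Snai1 was not well above background.

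Markers of other cells were present too. In bulk RNA, fewer cells of a type and less RNA per cell cannot be told apart, and the part of these cells in the levels above was not tested. Neutrophil markers were the brightest of the other cells' lists: 13 of 14 were measured, 7 lay above percentile 90, and the median percentile was 91.1. Lcn2 and the calprotectin subunit S100a9 read 4.83 and 4.29 and 4.38 and 4.20. Csf3r read 3.92 and 3.93, Retnlg 3.99 and 3.73, and the granule genes Camp and Ngp 3.75 and 3.52 and 2.92 and 3.01. S100a8 stood at 3.48 and 3.14, and Mmp8, Ltf, Mpo and the chemokine receptor Cxcr2 also lay above the median of all genes. The primary granule protease Elane, which precursors make, was dim at -1.57 and -2.14, as was Mmp9 at -1.42 and -1.03. Ly6g had no named probe. Lcn2, S100a8 and S100a9 are also made by astrocytes or myeloid cells other than neutrophils after injury.

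Of the monocyte markers 13 of 14 were measured and 11 lay above the median, with a median percentile of 74.6. Ms4a4c led through 1 of its 3 probes, while the others averaged 0.46 and -0.05. Ly6c1, which endothelial cells also make, read 4.24 and 3.57, Chil3 4.04 and 3.59 and F10 3.49 and 3.18. Fn1, Emilin2, F13a1, Thbs1, Ccr2, Itga4 and Plac8 lay above the median at percentiles 55.8 to 93, and Vcan below it. Ly6c2 had no named probe. Markers of border-associated macrophages were measured in 9 of 10 cases with a median percentile of 59.4. Stab1, Pf4, Ms4a7, Cbr2 and Folr2 lay above the median, while Lyve1, the marker of perivascular macrophages, read -1.72 and -2.54.

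Lymphocyte markers were dimmer, with 16 of 18 measured, 4 above the median and a median percentile of 38. Nkg7, a granule gene of killer cells, read 2.46 and 2.63, Cd79b, of the B cell receptor, 1.72 and 1.16, Gzma 0.99 and 1.58 and the T cell receptor subunit Cd3d 0.15 and 0.70. Ncr1 and Klrb1c were near the floor of the genes measured, at percentiles 4.73 and 5.81. Cd79a was not well above background, and Trac had no named probe.

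Markers of brain cells outside the myeloid lineage were bright as well. All 17 neuron markers were measured and 13 lay above the median, with a median percentile of 78.3. The noncoding RNA Meg3 read 4.44 and 4.03, and the synaptic genes Snap25, Syn1 and Syt1 4.20 and 4.05, 3.67 and 3.95 and 3.56 and 3.39. Rbfox3, Camk2a, Nefl, Stmn2, Tubb3, Gad2, Npy, Map2 and Nefm also lay above the median, while the vesicular glutamate transporter Slc17a7 read -2.03 and -2.24. All 14 astrocyte markers were measured and 12 lay above the median, with a median percentile of 83.9. Clu read 4.83 and 4.57, Aldoc 4.13 and 3.90, Aldh1l1 3.81 and 3.73 and S100b 3.67 and 3.85. Atp1b2, Glul, Gjb6, Aqp4, Fgfr3, Gfap, Slc1a2 and Slc1a3 followed, with Gfap, the intermediate filament of reactive astrocytes, at 1.64 and 1.72.

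All 16 oligodendrocyte lineage markers were measured and 13 lay above the median, with a median percentile of 67.6. The myelin gene Mag read 2.82 and 2.69, Cspg4, which pericytes share, 2.80 and 2.67 and Mal 2.41 and 2.15. Mobp, Cnp, Mbp, Cldn11, Olig1, Sox10, Gpr17, Mog and Opalin lay above the median too. Of the endothelial markers all 14 were measured and 11 lay above the median, with a median percentile of 66.9. After Ly6c1, Vwf read 3.75 and 3.65, the glucose carrier Slc2a1 2.91 and 3.09 and Bsg 2.94 and 2.79. The tight junction gene Cldn5, Flt1, Itm2a, Abcb1a, Esam, Kdr and Slco1a4 followed, whereas Pecam1 and Cdh5 were dim at -2.18 and -2.55 and -2.18 and -2.33.

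Mural and fibroblast markers were all measured (14), 9 above the median, with a median percentile of 60.1. Col1a2 read 2.84 and 3.02, Vtn 2.75 and 2.74, Cspg4 as above and Tagln 2.73 and 2.46. Acta2, Dcn, Col1a1, Pdgfrb and Col3a1 lay above the median as well. Ependymal and choroid plexus markers were all measured (12), 11 above the median, with a median percentile of 77.5. Ttr, which encodes transthyretin of the choroid plexus, read 3.86 and 4.15, Folr1 4.08 and 3.72 through 1 of its 2 probes, Cfap126 2.96 and 2.62 and Clic6 2.66 and 2.69. Rarres2, Dynlrb2, Kcnj13, Kl, Foxj1, Ccdc153 and Aqp1 followed. Erythroid markers were measured in 8 of 10 cases, 6 above the median, with a median percentile of 62.4. The globin genes Hba-a1, Hba-a2, Hbb-bt and Hbb-bs read 4.85 and 4.65, 3.18 and 2.88, 2.72 and 2.60 and 1.14 and 0.92, and near-identical globin copies can share a probe's signal. Alas2 and Epor also lay above the median, and Ahsp had no named probe.

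The 2 arrays differed by more than 1 on the log2 scale in 305 genes (1.88%). Among genes at or above the median on both, the largest differences were in 9030025P20Rik, Tnfaip1, Camkk1, Ctsk, Iqsec3, Zdhhc5, Plin4, Tent5a, Lztr1 and Slc1a3. Of these 10, 5 were higher on replicate 1 and 5 on replicate 2. The long transcript 9030025P20Rik read 1.91 and 0.43, Camkk1, a kinase that activates CaM kinases, 0.36 and 1.71, and the lipid droplet gene Plin4 2.86 and 1.65. Slc1a3, the glutamate transporter of astrocytes, read 0.48 and 1.57. Among the brightest 25% of genes replicate 1 was higher by a median of 0.13.

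Wild type levels were tested only against the samples labelled ZEB1 overexpression after tMCAO, the one group on the same slide. In this test 8 of 14 interferon response genes were lower in wild type, against 1.48% of all genes counted in the same way, and none was higher, against 0.509%. With marked spots kept, Zeb1 itself read 0.12 and 0.41 in wild type and -0.08 and 0.56 in the libraries labelled overexpression. The groups overlapped, so its single probe does not set these libraries apart. Its spot was marked on every one of these arrays but overexpression replicate 1. Zeb1 therefore had no unmarked wild type value and was not in the test. Whether this probe can read the transgene is not known here, and every direction below rests on the labels. With spots that the scanner software marked left out, limma called 523 of 22488 genes (2.33%) at an adjusted p under 0.05, 359 lower and 164 higher in wild type. Of the 320 genes of the lists that were tested, 25 were called lower in wild type and none higher, against 1.6% and 0.729% of all genes tested. Genes with 1 unmarked array in each group have no spread of their own, and genes well above background in one group alone had to differ to be tested, so neither kind is counted here. That leaves 253 list genes, of which 23 were lower (9.09%), and 18481 genes in all. Of the 23, 7 had 1 unmarked array in one group, whose spread is taken from the other group and from other genes. The remaining 16 were among 169 list genes with unmarked spots on all 4 arrays.

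The 8 interferon genes were Ifit2, Gbp2, Oas2, Ifi44, Ddx58, Rsad2, Ifih1 and Isg15. Of the 8, 5 had unmarked spots on all 4 arrays, among 10 such interferon genes. Counting also a pair with 1 array in each group, all 16 in the fit had a negative difference (wild type minus overexpression), with a median of -1.77 against 0.10 over all genes tested. Ifit2, which binds viral RNA, read -2.39 and -2.14 in wild type and 1.91 on overexpression replicate 2, the only overexpression array whose spot was unmarked. The difference was -4.18 (SE 0.32, limma adjusted p = 0.00991), with no spread among overexpression arrays behind it. Oas2, an activator of RNase L, read -2.99 and -3.21 in wild type against -0.13 and -0.02, so the groups did not overlap. Its difference was -3.03 (SE 0.25, limma adjusted p = 0.00623). Isg15, whose promoter shows 3 matches to the interferon element, read 1.99 and 2.10 in wild type against 3.86 and 3.68. Its difference was -1.72 (SE 0.24, limma adjusted p = 0.0216). Rsad2 read 1.94 and 1.95 in wild type against 3.94 on 1 array, a difference of -2.0 (SE 0.31, limma adjusted p = 0.0379) with the same limit. Among the other 4, the guanylate-binding Gbp2 differed by -3.04 and Ifi44 by -2.71. For Gbp2, as for Rsad2, overexpression replicate 2 was again the only unmarked overexpression array. The RNA sensors Ddx58 and Ifih1 differed by -2.21 and -1.82, and in none of these 4 did the groups overlap.

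The other 15 genes came from the lists of defence and signalling. Of 7 CXC and CX3C chemokines counted 1 was lower in wild type. Cxcl13, the B cell attractant, read -4.99 and -5.13 against -1.57 and -1.32, a difference of -3.61 (SE 0.25, limma adjusted p = 0.00384). Cxcl10 had 1 unmarked array per group, at -1.08 against 2.37. It was called in the fit but had no spread of its own, so it is not counted here. With marked spots kept, its difference was -2.56 (limma adjusted p = 0.0349). Of 12 inflammatory cytokines and enzymes 3 were lower: Acod1 (difference -2.50), Nos2 (-1.96) and Tnf (-1.55). Tnf read -1.76 and -1.67 in wild type against -0.19 and -0.15, and the groups did not overlap. Of 13 pattern recognition receptors the RNA sensor Tlr3, the endotoxin receptor Tlr4, the peptidoglycan sensor Nod2 and the scavenger receptor Marco were lower, with differences of -1.62, -1.30, -1.72 and -1.51. Tap1 and Nlrc5, the activator of MHC class I genes, were lower among 3 class I genes counted (-1.72 and -2.04), but with the mean of its probes Nlrc5 differed by 0.72 and was not called. The cytokine signalling inhibitor Socs1 was lower among 10 genes of alternative activation (-2.74). Il10 was well above background on both overexpression arrays and on neither wild type array. Single genes were called in 4 further lists: Cybb (-1.88) of the phagocyte core, Cfb (-2.49) of complement, Osm (-1.52) of the growth factors and Elane (-2.01) of the neutrophil markers. Cfb rested on 1 unmarked wild type array. Acod1, Nlrc5 and Socs1 each rested on overexpression replicate 2 as the only unmarked overexpression array. Like Ifit2, Gbp2 and Rsad2, they could not be fitted with that replicate left out.

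Of the homeostatic microglia genes only 2 could be counted, since the others had marked spots, so this test says little of them. None was called among these, 8 activated microglia genes or 5 CC chemokines, where a share of 1.48% would give about none as well. The CC chemokines were of mixed sign: Ccl2 differed by -0.89 and Ccl8 by -1.24, and Ccl17 by 0.85. With marked spots kept, Ccl7 and Ccl8 were lower in wild type, each by a difference of -1.35 (limma adjusted p = 0.042 and 0.0456). Among markers of other cells, 7 of 7 neutrophil markers tested had a negative difference (median -0.44). Of these, Camp, Csf3r and Lcn2 differed by only -0.09, -0.07 and -0.08. The summed level of all 13 neutrophil markers measured, in multiples of the array's 75th percentile intensity, was 127 and 107 in wild type against 137 and 129. The 13 lymphocyte markers tested were negative too (median -0.64), with sums over 16 markers of 15.5 and 17.3 against 18.7 and 32.9. Monocyte sums were 147 and 105 against 129 and 126. Mural and fibroblast markers were positive in 11 of 11 (median 0.86), with sums of 38.5 and 39.4 against 27.4 and 23.2, and endothelial markers in 6 of 6 (median 0.88), with sums of 70.4 and 62.5 against 50.01 and 45.0. These counts of signs take in genes with 1 unmarked array in each group or well above background in one group alone. Leaving such genes out keeps 4 neutrophil, 11 lymphocyte, 10 mural and fibroblast and 4 endothelial markers. None of the markers was called apart from Elane, and the part of these cells in the differences was not tested.

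The calls changed with single libraries and settings. Without wild type replicate 1 limma called 56 genes, without wild type replicate 2 117, without overexpression replicate 1 1197 and without overexpression replicate 2 915. Of the 25 list genes called, 3 were still called without wild type replicate 1 and 4 without wild type replicate 2. Oas2 and Cxcl13 were called with each of the 4 arrays left out in turn. With no filter on dim probes, or with the mean of a gene's probes in place of the brightest, limma called 0 genes, with 4215 and 4184 at an unadjusted p under 0.05.

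Wild type samples before tMCAO lay on another slide of another array design, so time and slide cannot be told apart, and values are set side by side with no test. The slides also differed in quality. Marked spots, kept here, were 3.28% and 1.26% of spots before tMCAO against 21.7% and 16.9% after. The 75th percentile intensities were 3581 and 3306 before against 1078 and 1366 after. The designs shared probes for 13521 named genes that were well above background on both arrays after tMCAO or on both before. A gene's probe here can differ from the one used above. Levels correlated at 0.989 between the arrays after tMCAO and 0.992 between those before, but at 0.813 to 0.827 across slides, and the median level was 0.51 higher after tMCAO. A gene is counted here as higher or lower where both arrays after tMCAO lay more than 1 beyond that shift from both arrays before, which held for 22.3% of the genes (higher) and 19.5% (lower).

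Counted this way, 10 of 11 neutrophil markers, 12 of 13 chemokine receptors, 13 of 15 phagocyte core genes and 12 of 14 proliferation genes were higher after tMCAO. So were 8 of 11 CC chemokines, 7 of 9 MHC class II genes and 11 of 17 interferon response genes. Genes near background before tMCAO could enter only through the arrays after it, where they were bright. Chemokine receptors had a median percentile of 12.7 before and proliferation genes 20.3. For such lists a count of higher genes was partly fixed in advance and is no support for a change. Ccl2 read 3.71 and 3.50 after tMCAO and -2.61 and -1.34 before. Arg1 read 2.96 and 2.79 after and -5.49 and -5.29 before. Retnlg, of neutrophils, read 3.99 and 3.73 after and -1.40 and 0.49 before, so the arrays before tMCAO differed from each other by more than those after. For these genes the groups did not overlap. The homeostatic list had 7 of 15 higher and none lower. Tmem119 read 3.45 and 3.49 after and 0.48 and 0.37 before, and Cx3cr1 3.80 and 3.84 after and 1.17 and 0.28 before. Sall1 read 0.71 and 0.48 after and -0.87 and -0.72 before, and P2ry12 2.18 and 2.62 after and 1.62 and 1.03 before, both within that step. Siglech, a lectin of microglia, went the other way on its shared probe, at 0.19 and 0.95 after and 1.41 and 2.36 before. The groups did not overlap, and it missed the step by little. This probe was dimmer after tMCAO than the Siglech probe given with the homeostatic genes, which is not set side by side here. Neuron markers went the other way, with 8 of 13 lower and 1 higher, and ribosomal protein genes were lower in 5 of 16. Snap25 read 4.20 and 4.05 after and 3.73 and 3.94 before, so that relative to the shift it was lower by less than the step.

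**Figure D5:**
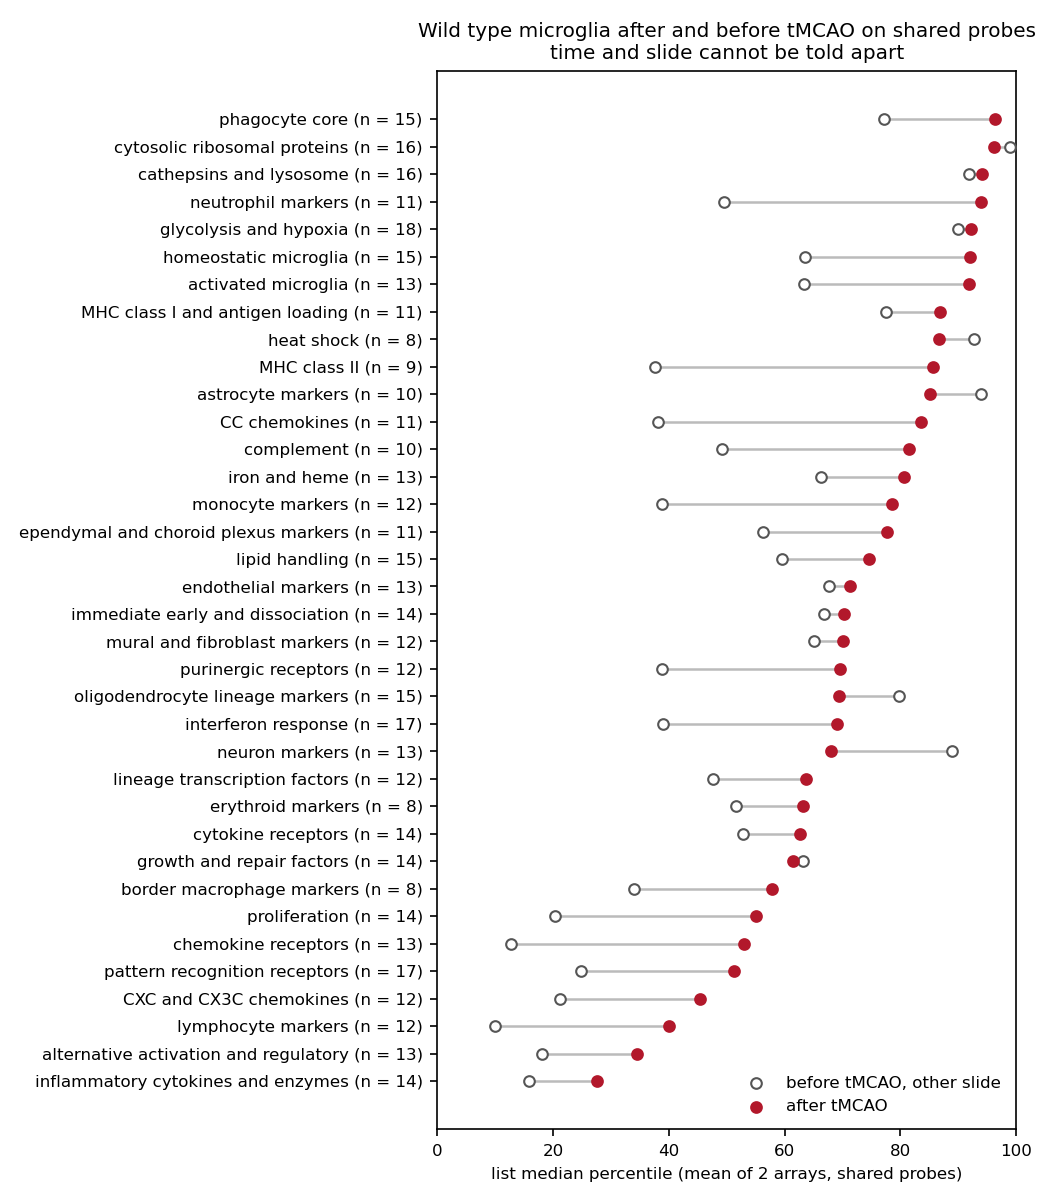
Median percentile of each gene list with at least 8 genes on probes shared by both array designs (rows, n genes) in wild type microglia after tMCAO (filled) and before tMCAO on another slide (open), each from the mean of 2 arrays. Neutrophil, chemokine and MHC class II lists lie far to the right after tMCAO and neuron markers to the left, with time and slide confounded. Genes had to be well above background on both arrays of either group.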

How the data were processed

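Labelled RNA was hybridised to 1-colour Agilent arrays. Per the file headers, Agilent Feature Extraction 11.5.1.1 wrote the scanner files, while the submitters' processing notes name version 9.1. The authors deposited linear intensity per spot, background-subtracted and detrended, per the file headers. The deposited marks, a unit of the kind "other", flag a spot as above background, saturation, non-uniformity or an outlier. The authors' deposited value table holds log2 values, which equal the scanner values minus a constant per array (r = 1.00, medians of the offset 0.14 and 0.14); it served as an alternative.

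Levels were log2 intensity minus the log2 75th percentile of the non-control spots of each array (75th percentiles of 1078 and 1366 intensity units), with spots of a probe averaged and marked spots kept. Well above background were 71.6% and 73.5% of spots. A probe was well above background when at least 50% of its spots were. Only 2 arrays per group limit the precision. Probes were named through their accessions with RefSeq tables of GRCm38.p6 (48.1% of probes named); 541 of the 552 list genes had a named probe, and 519 were measured. Genes named in the text were the 25 brightest, the 4 brightest of each list, the members above the median of lists of other cells, all members of the homeostatic, cytokine and chemokine lists, the 10 largest differences between arrays and list members called by the test; further genes were named after their values were seen. Some members that this rule names are not reported here. The members and the lists were chosen with earlier results of these data known.

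The two-sided test used lmFit and eBayes of limma 3.58.1 under R 4.3.3 (Benjamini-Hochberg over 22488 genes, threshold 0.05), on probes well above background on every array of a group, with marked spots left out; counts leave out genes with 1 unmarked array in each group or well above background in one group alone; it was tested on simulated data. The same-numbered samples of these groups are not paired by their labels. Alternatives were marked spots left out or kept, normexp (offset 50), quantile normalization, other filters and probe rules, the value table, a replicate block and leaving out each array. Normexp used the median signal and local background, since the mean signal was not used here.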

Additional observations from a re-analysis of the deposited data

How the results depend on the processing

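The count of genes measured moved from 16188 to 10246 with marked spots left out. It stayed within 1.5 times with detection on at least 1 array or either array alone, and normexp, the value table and the median over probes do not bear on it. The correlation between the arrays was 0.985 to 0.988 under every alternative that could be fitted. The count of genes called against the samples labelled ZEB1 overexpression was 523. It was 895 with marked spots kept, 335 with quantile normalization, 375 with normexp and 432 with the value table, and 0 both with no filter on dim probes and with the mean of a gene's probes. Leaving out 1 array each gave 56 to 1197 genes, the lowest without wild type replicate 1. With the lone array left in a group its spread is assumed to be like the other group's. Higher in wild type were 31.4% of the calls, but 7.14% and 7.69% without wild type replicates 1 and 2 and 45.2% without overexpression replicate 2. With a replicate block 448 genes were called, 371 of them shared with the 523. The deviations of same-numbered samples correlated at 0.11 over 2 pairs, too few to pair them. Of the 25 list genes called, 8 were no longer called with the replicate block (Acod1, Elane, Marco, Nlrc5, Osm, Rsad2, Socs1 and Tlr4), 7 with quantile normalization, 6 with normexp and 2 with the value table, all in the same direction. The mean of probes turned Nlrc5 to 0.72 (limma adjusted p = 0.794), and the cause was not tested. List medians moved most with marked spots left out: neutrophil markers to percentile 62.5, the phagocyte core to 62 and ribosomal proteins to 69.2, with fewer and dimmer members left.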
